A study of Mus musculus with 4 samples.

Results

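The genes described here encode 10 enzymes, cofactors and transporters that make the barrier lipids of the epidermis: Alox12b, Aloxe3, Abca12, Elovl1, Elovl4, Cers3, Cyp4f39, Pnpla1, Abhd5 and Ugcg. They were listed by function, but with earlier results of these data known, so counts of the 10 beside all genes are a description only. All 10 were found among the 19938 named genes of the array, each read by 1 probe set. Mouse Gene 1.0 ST arrays were hybridised with RNA of whole ears from 8-week-old female mice, with 1 array in each of 4 groups. The groups were Traf6EKO (EKO, epithelial Traf6 knockout) with imiquimod (IMQ), Traf6f/f (f/f, floxed alleles) with IMQ, EKO without IMQ and f/f without IMQ. The study's title calls the deletion keratinocyte-specific, and the sources used here do not name what drives it. Treated ears received 10 mg of IMQ cream a day for 2 days, and whether untreated ears received a vehicle is not stated. IMQ activates TLR7 and provokes psoriasis-like inflammation, and TRAF6 is an adaptor that carries Toll-like, IL-1 and IL-17 receptor signals. The design text gives n = 2, and nothing states whether an array held RNA pooled from 2 mice.

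The outermost skin layer is sealed by lipid sheets of ceramides, cholesterol and free fatty acids. Its most specialised ceramides carry an ultra-long fatty acid whose far end is hydroxylated and joined to linoleic acid. Granular keratinocytes build these acylceramides, store them as glucosylceramides in lamellar bodies and secrete them. Lipoxygenases then oxidise the linoleate so that the ceramide can be bound to the cornified envelope. Inherited loss of many of these genes causes ichthyosis in humans.

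Values are log2 levels as the authors deposited them, and differences are log2 differences between 2 arrays. No group has a replicate array, so no difference below has an error or a p-value, and the number of arrays limits the precision. A gene was counted as changed in size when it differed at least 1.5-fold (0.58 on the log2 scale) and reached, on at least 1 of the arrays compared, the median level of the named genes (the level floor). All 10 barrier lipid genes lay above it on all 4 arrays. Array medians were between 6.52 and 6.57, and arrays correlated across probe sets, which are not independent, at between 0.981 and 0.995. Levels of 6 epidermal markers (Krt5, Krt14, Krt1, Krt10, Lor, Ivl) ran from 10.2 to 13.1, all above the floor. Traf6 was at 9.35 on the EKO IMQ array and 9.30 on the f/f IMQ array, and at 9.65 on the EKO untreated array and 9.51 on the f/f untreated array. It was thus not lower in EKO. Whole ears also contain non-epithelial cells, and no source used here places the probes against the deleted exons, which leaves the genotype labels unchecked by this level.

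With IMQ, all 10 barrier lipid genes were higher in f/f skin and 9 of 10 were higher in EKO skin. Of the 10, 6 were at least 1.5-fold higher in f/f, where 10.2% of 10548 genes were, and 0 in EKO, where 2.66% of 10285 genes were. None of the 10 was at least 1.5-fold lower with IMQ, as 0.807% of genes were in EKO and 9.53% in f/f. The median difference was 0.27 in EKO and 0.65 in f/f, against -0.01 and 0.01 over all genes tested. All 10 values lay inside the middle 95% of genes in each genotype, from -0.47 to 0.61 in EKO and from -1.02 to 1.24 in f/f. A difference above 0 was itself found for 47.1% of genes in EKO and 50.6% in f/f. In 8 of the 10 genes the level was highest on the f/f IMQ array, next on EKO IMQ, then EKO untreated, and lowest on f/f untreated. That order was found for 20.0% of 10646 genes. In whole ear, a change in the number of granular keratinocytes and a change in RNA per cell cannot be told apart.

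**Figure D1:**
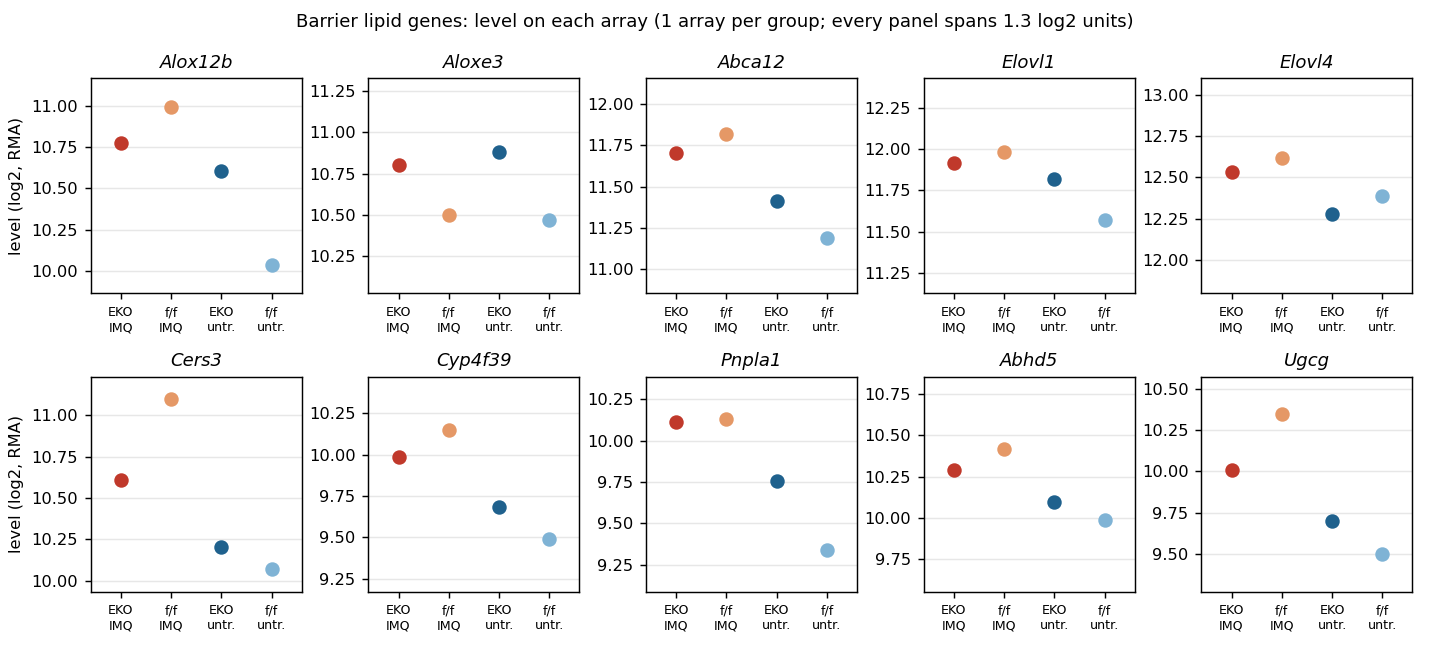
Log2 level of each barrier lipid gene on the 4 arrays, from left to right EKO IMQ, f/f IMQ, EKO untreated and f/f untreated. Each point is 1 array, and every panel spans the same log2 range around the gene's own mid-level. The f/f IMQ point is highest in all panels but Aloxe3, and the f/f untreated point is lowest in all but Elovl4.

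Fatty acid elongation comes first in the pathway. ELOVL1 elongates saturated fatty acids to very long chains, and ELOVL4 makes the ultra-long chains of acylceramides. Elovl1 was at 11.92 on the EKO IMQ array and 11.82 on the EKO untreated array, and at 11.98 on the f/f IMQ array and 11.57 on the f/f untreated array. The IMQ difference was 0.10 in EKO and 0.41 in f/f. Elovl4 was at 12.54 on the EKO IMQ array and 12.28 on the EKO untreated array, and at 12.62 on the f/f IMQ array and 12.39 on the f/f untreated array. Its IMQ differences were alike in size, 0.26 in EKO and 0.23 in f/f. Elovl4 was the barrier lipid gene that varied least, with 0.34 between its highest and lowest array, and the only one of the 10 that was lower in EKO than in f/f without IMQ (-0.11).

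CYP4F39, the mouse counterpart of human CYP4F22, hydroxylates the far end of the ultra-long chain, and CERS3 couples that chain to the sphingoid base. Cyp4f39 was at 9.99 on the EKO IMQ array and 9.68 on the EKO untreated array, and at 10.15 on the f/f IMQ array and 9.49 on the f/f untreated array. It was higher with IMQ by 0.31 in EKO and by 0.66 (1.58-fold) in f/f. Cers3 was at 10.61 on the EKO IMQ array and 10.20 on the EKO untreated array, and at 11.10 on the f/f IMQ array and 10.07 on the f/f untreated array. The f/f IMQ array was the high one, 0.49 above EKO IMQ. Cers3 was higher with IMQ by 0.41 in EKO and by 1.03 (2.04-fold) in f/f, in each genotype the highest value among the 10 genes. It was the only one of the 10 past 2-fold in f/f, where 3.82% of genes were. After quantile normalization (0.94) or cyclic loess (0.96) Cers3 fell short of 2-fold. With the arrays centred on their medians Alox12b (1.01) passed 2-fold too.

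PNPLA1 transfers linoleic acid onto the hydroxylated ceramide, and ABHD5 (CGI-58) assists it in the epidermis while activating the triglyceride lipase PNPLA2 in fat. Pnpla1 was at 10.11 on the EKO IMQ array and 9.76 on the EKO untreated array, and at 10.13 on the f/f IMQ array and 9.34 on the f/f untreated array. With IMQ it was higher by 0.36 in EKO and by 0.79 (1.73-fold) in f/f, and the levels of the 2 IMQ arrays were within 0.02 of each other. Abhd5 was at 10.29 on the EKO IMQ array and 10.09 on the EKO untreated array, and at 10.42 on the f/f IMQ array and 9.99 on the f/f untreated array. Its IMQ difference was 0.19 in EKO and 0.43 in f/f. Pnpla2, its partner in fat, had the opposite sign, at -0.25 in EKO and -0.94 in f/f, as did 10 of 11 adipocyte markers in each genotype (medians -0.38 in EKO and -1.44 in f/f). The number of adipocytes was not measured, and their part in the whole-ear level of Abhd5 was not tested.

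UGCG adds glucose to ceramide, and ABCA12 loads the glucosylceramides into lamellar bodies. Ugcg was at 10.01 on the EKO IMQ array and 9.70 on the EKO untreated array, and at 10.35 on the f/f IMQ array and 9.50 on the f/f untreated array. It was higher with IMQ by 0.31 in EKO and by 0.85 (1.80-fold) in f/f. Abca12 was at 11.70 on the EKO IMQ array and 11.42 on the EKO untreated array, and at 11.82 on the f/f IMQ array and 11.19 on the f/f untreated array. The IMQ difference was 0.29 in EKO and 0.63 (1.55-fold) in f/f. Across the 4 arrays Abca12 and Cyp4f39 ran closest together of the 45 pairs of barrier lipid genes: with each gene's own mean subtracted, their levels differed by a root mean square of 0.02. With the arrays renormalised to identical distributions, Abca12 and Cyp4f39 no longer reached 1.5-fold in f/f, and 4 genes were counted. After cyclic loess Abca12 alone dropped out, leaving 5.

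The 2 lipoxygenases act last. ALOX12B (12R-lipoxygenase) oxidises the ceramide-bound linoleate, and ALOXE3 converts the resulting hydroperoxide. Alox12b was at 10.77 on the EKO IMQ array and 10.60 on the EKO untreated array, and at 10.99 on the f/f IMQ array and 10.04 on the f/f untreated array. With IMQ it was higher by 0.17 in EKO and by 0.96 (1.94-fold) in f/f. The f/f untreated array was the low one, 0.57 below EKO untreated. Aloxe3 did not share this pattern: it was at 10.80 on the EKO IMQ array and 10.88 on the EKO untreated array, and at 10.50 on the f/f IMQ array and 10.47 on the f/f untreated array. Its IMQ differences were -0.08 in EKO and 0.03 in f/f, and the f/f value changed sign when arrays were rescaled by quantiles (-0.06) or by cyclic loess (-0.04). Both EKO arrays lay above both f/f arrays. In the RefSeq annotation of GRCm38.p6, Aloxe3, Alox12b and Alox8 are consecutive protein-coding genes on chromosome 11. Alox8, which encodes the mouse 8S-lipoxygenase, was higher with IMQ by 0.24 in EKO and by 1.97 in f/f. Alox12e, an epidermal lipoxygenase gene of the mouse, was lower, at -0.27 in EKO and -1.21 in f/f.

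**Figure D2:**
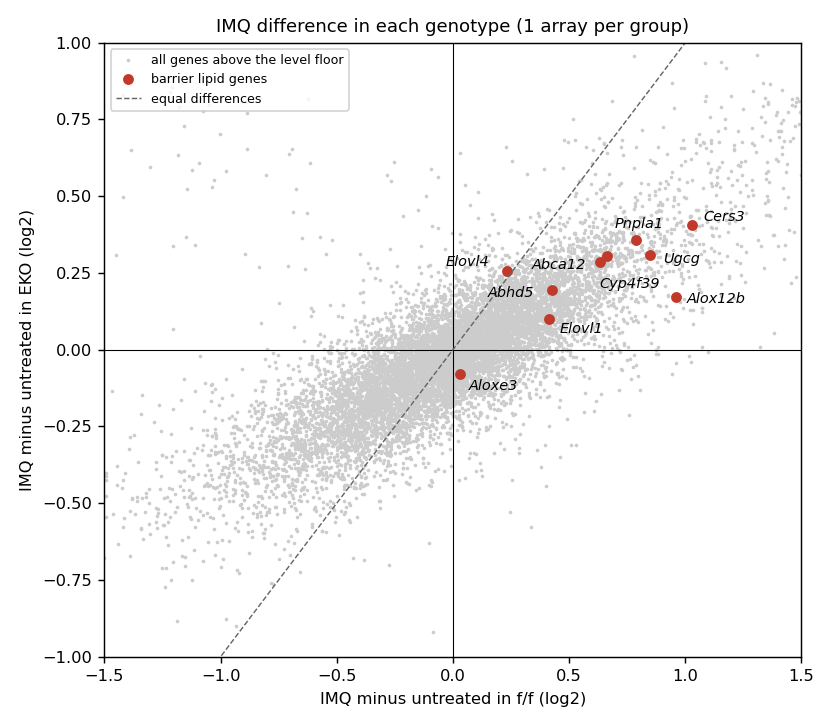
Log2 difference of IMQ minus untreated in EKO (vertical) against the same in f/f (horizontal), with the barrier lipid genes in red, all 10646 genes above the level floor in grey and a dashed line of equal differences. Each difference is between 2 arrays, and 247 genes outside the plotted range are not drawn. All barrier lipid genes but Elovl4 lie below the line, and Alox12b, at 0.96 in f/f and 0.17 in EKO, lies farthest below it.

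The comparison of genotypes asked how EKO skin differed from f/f skin, without and with IMQ. Without IMQ, 9 of 10 were higher in EKO than in f/f, at a median of 0.22 against 0.02 over all genes. A difference above 0 was found for 55.1% of genes. None of the 10 reached 1.5-fold in either direction, as 0.647% of 10200 genes did upward and 1.06% downward. Alox12b (0.57, 1.48-fold) fell just short, and it did reach 1.5-fold when the arrays were centred on their medians. Pnpla1 (0.41) and Aloxe3 (0.41) followed. These 3 values lay above the middle 95% of all genes, which ran from -0.41 to 0.38. Elovl1 (0.25), Abca12 (0.23), Ugcg (0.20), Cyp4f39 (0.19), Cers3 (0.13) and Abhd5 (0.10) lay within it.

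With IMQ the sign was the other way: 9 of 10 were lower in EKO than in f/f, where 50.9% of genes were lower. The median was -0.12, against -0.01 over all genes. None of the 10 reached 1.5-fold, as 2.03% of 10282 genes did upward and 2.61% downward. The farthest from 0 were Cers3 (-0.49, 1.40-fold lower), Ugcg (-0.34) and Alox12b (-0.22). Cyp4f39 (-0.16), Abhd5 (-0.13), Abca12 (-0.12), Elovl4 (-0.08), Elovl1 (-0.07) and Pnpla1 (-0.02) were closer, and Pnpla1 turned positive (0.02) after quantile rescaling. Aloxe3 was the gene higher in EKO in both states, by 0.30 with IMQ and by 0.41 without. All 10 values lay inside the middle 95% of genes, from -0.60 to 0.54.

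Median differences of the adipocyte, muscle, hair shaft and macrophage marker lists had the opposite signs to those of the barrier lipid genes in both states. Adipocyte markers were higher in EKO in 10 of 11 with IMQ (median 0.58), and lower in 11 of 11 untreated (median -0.47). Muscle markers were higher in EKO in 10 of 10 with IMQ (median 0.50) and lower in 9 of 10 untreated (median -0.15). Hair shaft markers were higher in EKO in 8 of 8 with IMQ (median 0.83) and lower in 8 of 8 untreated (median -0.65). Macrophage markers were higher in EKO in 5 of 8 with IMQ (median 0.10) and lower in 8 of 8 untreated (median -0.22). Stressed keratinocyte markers ran the same way as the barrier lipid genes, lower in EKO in 8 of 8 with IMQ (median -1.18) and higher in 7 of 8 untreated (median 0.30). Neutrophil markers did too, lower in EKO in 8 of 8 with IMQ (median -0.97) and higher in 5 of 8 untreated (median 0.08). Of these 8, 5 reached the level floor with IMQ and 2 untreated. Sebaceous markers were lower in EKO in all 7 measured in both states, with medians of -0.48 with IMQ and -0.86 untreated. The part of these lists' cells in the genotype differences of the barrier lipid genes was not tested.

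**Figure D3:**
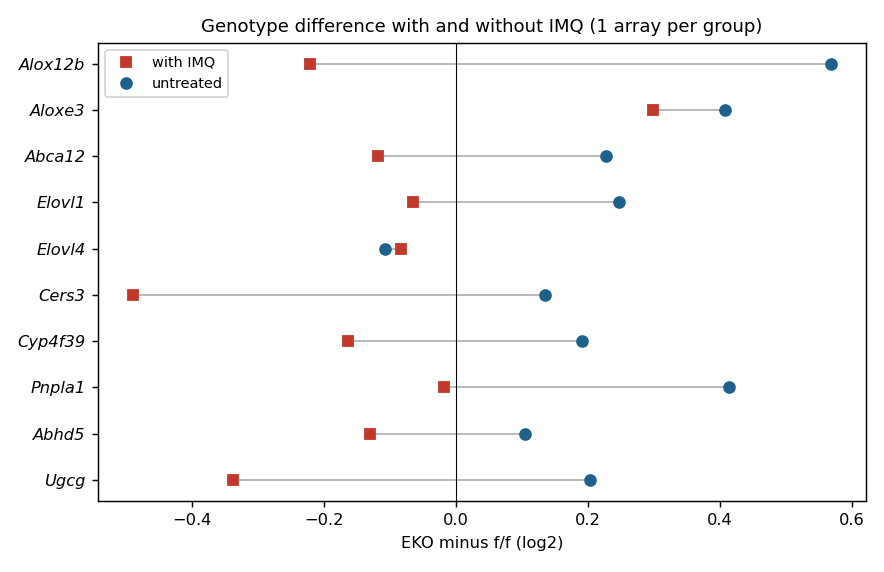
Log2 difference of EKO minus f/f for each barrier lipid gene, with IMQ (red squares) and untreated (blue circles), each between 2 arrays. In 8 genes the untreated difference is above 0 and the difference with IMQ below 0. Aloxe3 is above 0 in both states, at 0.30 and 0.41, and Elovl4 below 0 in both, at -0.08 and -0.11.

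The IMQ difference in EKO minus that in f/f was below 0 in 9 of 10 genes, as in 53.3% of all genes, with a median of -0.35 against -0.02. Of the 10, 2 were at least 1.5-fold lower by this measure, where 4.63% of 10646 genes were: Alox12b (-0.79) and Cers3 (-0.62). After quantile rescaling or cyclic loess Alox12b was the only one of the 10 so counted. Ugcg was at -0.54, Pnpla1 at -0.43, Cyp4f39 at -0.35, Abca12 at -0.35, Elovl1 at -0.31, Abhd5 at -0.23 and Aloxe3 at -0.11, while Elovl4 was at 0.03. The middle 95% of all genes ran from -0.77 to 0.68 by this measure, and of the 10 only Alox12b lay outside it. As a share of the f/f difference, the EKO difference was 17.8% for Alox12b, 24.3% for Elovl1, 36.2% for Ugcg and 39.5% for Cers3. It was 45.2% for Pnpla1, 45.3% for Abhd5, 45.4% for Abca12, 46.4% for Cyp4f39 and 111% for Elovl4. Aloxe3 is left without a share because its f/f difference was near 0. IMQ differences were smaller in EKO over all genes too. Their middle 95% ran from -0.47 to 0.61 in EKO and from -1.02 to 1.24 in f/f. No such share was taken over all genes. The untreated level enters the values of the barrier lipid genes. The same f/f untreated array, the lowest in 9 of 10 genes, enters the untreated genotype difference, the IMQ difference in f/f and the present measure. These values are therefore not independent of each other. Alox12b and Pnpla1 started higher in EKO by 0.57 and 0.41, whereas Cers3 started higher by 0.13. The difference between genotypes in the IMQ difference was not tested.

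Other lists of the pathway held genes that were lower with IMQ as well as genes that were higher. Over all genes, 2.66% were at least 1.5-fold higher and 0.807% lower with IMQ in EKO, and 10.2% and 9.53% in f/f. These shares stand beside the IMQ counts of every list below. Of 13 measured genes of ceramide synthesis, 2 were at least 1.5-fold higher and 0 lower with IMQ in EKO, and 3 higher and 1 lower in f/f. Degs2, whose product makes phytoceramides, was higher with IMQ by 1.55 in EKO and by 2.86 in f/f. Degs1, the dihydroceramide desaturase gene, was higher by 0.42 in EKO and by 1.10 in f/f. Sptlc2, encoding a subunit of the serine palmitoyltransferase that starts the pathway, was higher by 0.36 in EKO and by 0.92 in f/f. Cers4 was higher in EKO (0.59) and at 0.39 in f/f. Cers5, a ceramide synthase gene for shorter chains, was at -0.20 in EKO and -0.67 in f/f. Cers3 was thus the ceramide synthase gene with the highest IMQ difference in f/f of the 5 measured (Cers2, Cers3, Cers4, Cers5, Cers6). The list medians were 0.15 in EKO and 0.30 in f/f.

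Of 15 measured genes of fatty acid supply and elongation, 3 were at least 1.5-fold higher and 0 lower with IMQ in EKO, and 4 higher and 1 lower in f/f, with medians of 0.08 in EKO and 0.01 in f/f. Fabp5, encoding the epidermal fatty acid carrier, was higher by 1.40 in EKO and by 2.14 in f/f. Elovl3, an elongase gene of sebaceous glands and hair follicles, was higher by 1.07 in EKO and by 1.57 in f/f, and Elovl7 by 0.72 in EKO and by 0.91 in f/f. Slc27a4, the gene of a fatty acid transport protein whose human loss causes ichthyosis, was at 0.53 in EKO and higher by 0.64 in f/f. Elovl5, which elongates polyunsaturated chains, was at -0.26 in EKO and -0.92 in f/f. Among 12 measured genes of ceramide and sterol processing, 1 was at least 1.5-fold higher and 0 lower in EKO, and 2 higher and 0 lower in f/f. They were Sult2b1, the cholesterol sulfotransferase gene (0.78 in EKO, 1.68 in f/f), and, in f/f, Smpd1, the acid sphingomyelinase gene (0.39 in EKO, 0.87 in f/f). Sgms2, a sphingomyelin synthase gene, was lower in EKO than in f/f with IMQ (-0.59).

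Genes whose products act beside the lipoxygenases and PNPLA1 at the lipid and protein envelope gave 2 of 18 at least 1.5-fold higher and 0 lower with IMQ in EKO, and 7 higher and 3 lower in f/f. Sdr9c7, whose product dehydrogenates the oxidised acylceramide after ALOXE3, was at 0.41 in EKO and higher by 0.97 in f/f. Ephx3, an epoxide hydrolase gene, was higher by 0.65 in EKO and by 1.11 in f/f. Nipal4, another ichthyosis gene, was at 0.24 in EKO and higher by 0.74 in f/f. Aloxe3, whose product acts between those of Alox12b and Sdr9c7, was at 0.03 in f/f, against 0.96 and 0.97 for these neighbours in the pathway. The transglutaminase genes Tgm3 (0.50 in EKO, 1.62 in f/f), Tgm5 (0.96 in EKO, 1.31 in f/f) and Tgm1 (0.24 in EKO, 1.24 in f/f) were also higher. The 3 lower in f/f were Alox12e, Pnpla2 and Pnpla3 (-0.35 in EKO, -0.86 in f/f).

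Of 11 measured regulators of the barrier programme, 0 were at least 1.5-fold higher or lower with IMQ in EKO. In f/f 3 were higher and 2 lower. The shares of all genes were 2.66% higher and 0.807% lower in EKO, and 10.2% and 9.53% in f/f. Ppard, a nuclear receptor gene linked to keratinocyte differentiation, was at 0.29 in EKO and higher by 1.22 in f/f. Ovol1 was at 0.40 in EKO and higher by 1.11 in f/f, and Grhl3, encoding a grainyhead factor needed for barrier formation, was at 0.23 in EKO and higher by 0.99 in f/f. The adipocyte and sebocyte regulator gene Pparg was at -0.41 in EKO and -0.97 in f/f, and Ppara was at -0.38 in EKO and -0.88 in f/f.

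**Figure D4:**
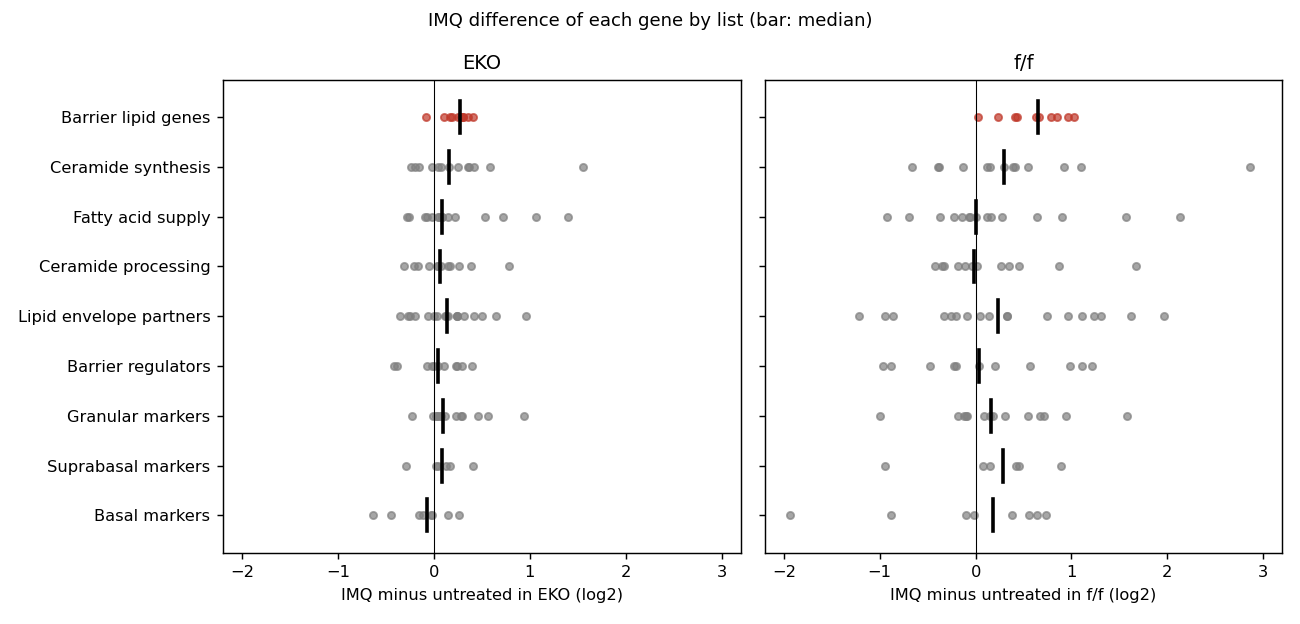
Log2 difference of IMQ minus untreated for each measured gene by list, in EKO (left) and f/f (right), each between 2 arrays, with black bars at list medians. The barrier lipid genes, in red, have the highest median of the lists shown in both genotypes, 0.27 in EKO and 0.65 in f/f. None of these genes lies below -0.08. Of the lists not drawn, stressed keratinocyte markers have higher medians, 1.69 in EKO and 3.95 in f/f. So do hair shaft (0.53) and sebaceous (0.32) markers in EKO, and neutrophil markers (1.55) in f/f.

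Markers of epidermal layers had smaller median IMQ differences than the barrier lipid genes. Of 14 granular layer markers, 1 was at least 1.5-fold higher and 0 lower with IMQ in EKO, and 4 higher and 1 lower in f/f, with medians of 0.10 in EKO and 0.16 in f/f. By any amount, 12 of 14 were higher with IMQ in EKO and 9 of 14 in f/f, where 47.1% and 50.6% of all genes were. Past 1.5-fold in f/f were Casp14 (1.58), Ivl (0.94), Klk5 (0.72) and Klk7 (0.67) upward and Flg2 (-0.99) downward. Casp14 was also the 1 counted in EKO (0.94). The 3 with the highest mean levels were Lce1c (0.04 in EKO, -0.10 in f/f), Hrnr (0.29 in EKO, 0.55 in f/f) and Lor (0.02 in EKO, -0.18 in f/f). All 14 were higher in EKO than in f/f without IMQ (median 0.18), and 12 of 14 with IMQ (median 0.24). The barrier lipid genes shared the untreated sign but not the sign with IMQ. Mean levels of the granular markers were 11.98 on the EKO IMQ array, 11.76 on f/f IMQ, 11.78 on EKO untreated and 11.49 on f/f untreated. Medians over 8 basal markers were -0.07 in EKO and 0.18 in f/f, and over 6 suprabasal markers 0.08 in EKO and 0.29 in f/f.

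Markers of other cells and states in the ear were read in the same IMQ comparisons. All 8 markers of stressed keratinocytes were at least 1.5-fold higher in both genotypes, with medians of 1.69 in EKO and 3.95 in f/f. All 10 muscle markers were lower in both, with medians of -0.31 in EKO and -0.93 in f/f; 0 of them were at least 1.5-fold lower in EKO and 10 in f/f. Of 7 sebaceous markers, whose gland shares elongases and ceramide enzymes with the epidermis, 3 were at least 1.5-fold higher and 0 lower with IMQ in EKO (median 0.32), and 3 higher and 2 lower in f/f (median 0.05). Medians over 8 hair shaft markers were 0.53 in EKO and -0.87 in f/f. Of 8 neutrophil markers, 2 reached the level floor in EKO and 5 in f/f, with medians of 0.40 and 2.58 over these, and 0.18 in EKO and 1.55 in f/f over all 8. Of 8 macrophage markers, 0 were at least 1.5-fold higher or lower in EKO (median -0.08), and 1 was higher and 2 lower in f/f (median -0.29). The part of these other cells in the IMQ differences of the barrier lipid genes was not tested.

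Cers3, which spanned the widest range over the arrays (1.03), was set against 9251 other genes above the level floor on all 4 arrays. After subtraction of each gene's own mean, the nearest were Erh, with a root mean square distance of 0.01, Pno1 (0.02) and Cd24a (0.02). Erh was higher with IMQ by 0.40 in EKO and by 1.06 in f/f. The match rests on 4 arrays and is a description only.

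Promoters are shown for Alox12b and Cers3, the barrier lipid genes with the highest IMQ differences in f/f. RefSeq promoter windows of GRCm38.p6, from 250 bases before to 50 after the start, were matched for 9 of the 10 genes (10 windows, Elovl1 having 2). The stretches before the start are printed 5′ to 3′ on the gene's strand. Capitals mark matches on either strand to a loose NF-kB pattern, GGG and CC with any 5 bases between them. The stretches marked in Alox12b match on the opposite strand, so as printed they read GG and CCC with 5 bases between them.
Alox12b, chr11:69156822-69157071, plus strand: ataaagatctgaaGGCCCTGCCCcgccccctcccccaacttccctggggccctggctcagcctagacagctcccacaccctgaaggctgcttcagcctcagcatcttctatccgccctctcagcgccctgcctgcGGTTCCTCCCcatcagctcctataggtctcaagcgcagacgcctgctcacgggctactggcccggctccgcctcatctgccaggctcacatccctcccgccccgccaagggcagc
Cers3, chr7:66743254-66743503, plus strand: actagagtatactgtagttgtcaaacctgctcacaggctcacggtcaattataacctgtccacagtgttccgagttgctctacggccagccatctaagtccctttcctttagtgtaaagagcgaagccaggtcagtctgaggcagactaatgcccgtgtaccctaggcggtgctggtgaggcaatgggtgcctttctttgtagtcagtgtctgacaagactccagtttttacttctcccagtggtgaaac
Matches were sought on both strands. The NF-kB pattern was found in 8 of the 10 windows, among them Alox12b but not Cers3, and in 50.8% of all 32851 windows of the same length. The grainyhead pattern AACCNGTT, the AP-1 pattern TGANTCA and the TATA box TATAAA were in 0 of the 10 windows, against 2.09%, 7.81% and 13.6% of all windows. The C/EBP pattern TTGCNNAA was in 1 (Pnpla1), against 10.8% of all windows. The windows of Cers3 and Alox12b were 50.7% and 66% G or C, against a median of 52.7% over all windows. The fixed bases of the NF-kB pattern are all G or C. Its other windows were 51.3% (Abca12), 81.3% (Ugcg), 70.7% and 59% (Elovl1), 71% (Elovl4), 67.7% (Abhd5) and 58% (Cyp4f39) G or C. The part of base composition in the count was not tested.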

How the data were processed

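The authors deposited 1 table of log2 levels for 35556 probe sets on 4 arrays, made with RMA, per the submitters' processing notes, which name no version or annotation. RMA corrects background, sets the arrays to 1 distribution and summarises probes. A shift shared by most genes would therefore not show, and the values carry no count or depth. Groups came from the sample titles. The platform annotation named 21789 probe sets with 1 gene symbol, 1621 with several, and did not list 12146; only the first kind was used, and per gene the probe set with the highest mean. All 10 member symbols matched RefSeq by Entrez identifier.

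Log2 differences were taken for 5 comparisons. The level floor, the median of named genes, lay between 6.93 and 6.98. An additive fit over both factors would take the genotype-by-IMQ difference as its error and was not used. No test was made. The members and lists were chosen with earlier results of these data known. Named besides the members were up to 4 counted genes per pathway list, up to 3 markers per list by level, the 3 genes nearest to the widest-ranging member, and genes a sentence needed. The counting step was run on simulated data with an assumed noise and planted changes of 2-fold or more. That run does not measure the noise of these arrays or how changes near 1.5-fold are counted. Alternatives were median centring, quantile normalization, cyclic loess (limma 3.58.1, R 4.3.3), dropping the level floor, averaging the probe sets of each gene and a 2-fold threshold. Python 3.11.15, numpy 2.4.6, pandas 2.3.3 and matplotlib 3.10.9 were used.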

Additional observations from a re-analysis of the deposited data

Results flagged for a closer look

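In 8 genes the genotype difference, EKO minus f/f, had opposite signs with and without IMQ. Each value compares 2 arrays, and the change of sign was not tested. The order shared by these 8 (f/f IMQ highest, then EKO IMQ, EKO untreated and f/f untreated) was found for 20.0% of 10646 genes. The share of all genes with a change of sign in any order was not counted. With IMQ and untreated, the log2 differences were -0.22 and 0.57 for Alox12b, -0.12 and 0.23 for Abca12, and -0.07 and 0.25 for Elovl1. They were -0.49 and 0.13 for Cers3, -0.16 and 0.19 for Cyp4f39, and -0.02 and 0.41 for Pnpla1. They were -0.13 and 0.10 for Abhd5, and -0.34 and 0.20 for Ugcg.

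Adipocyte, muscle, hair shaft and macrophage markers had medians of the opposite signs. These were 0.58, 0.50, 0.83 and 0.10 with IMQ and -0.47, -0.15, -0.65 and -0.22 untreated. A change of sign was thus not confined to the barrier lipid genes. The part of the cells of these marker lists was not tested.

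Aloxe3 had IMQ differences of opposite sign in the genotypes, -0.08 in EKO and 0.03 in f/f. Both are small, and this was not tested either.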

How the results depend on the processing

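No paired analysis was possible because each group holds 1 array. Under the other scalings the median differences of the barrier lipid genes kept their sign in all 5 comparisons. The lowest and highest medians of the IMQ difference over the scalings were 0.22 and 0.29 in EKO and 0.55 and 0.70 in f/f. Averaging probe sets could not change these values, because each of the 10 genes has 1 probe set. Dropping the level floor could not change their counts, because all 10 lay above it. At 2-fold, on the levels as deposited, 1 of the 10 genes (Cers3) was counted for IMQ in f/f and 0 for the difference of the IMQ differences. Median centring added 1 gene, Alox12b, to EKO against f/f untreated. Quantile normalization and cyclic loess each left 1 gene, Alox12b, for the difference of the IMQ differences; the cause was not tested. Of 150 member values under the 3 scalings, 4 changed sign, all of differences of 0.03 or less in size, and the largest move was 0.15. All 10 genes lay above the level floor on all 4 arrays, and background itself was not measured here; with 1 array per group, no value has a replicate error.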
